A study of Mus musculus with 3 samples.

Results

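The tumour necrosis factor (TNF) superfamily genes were examined for H3K27ac, the acetylation of histone H3 lysine 27 that marks active promoters and enhancers, in pancreatic epithelial spheroids. The members are the autosomal protein-coding genes of GRCm38 RefSeq whose symbol begins with Tnfsf or Tnfrsf and a number, together with Tnf, Lta, Ltb, Ltbr, Fas, Fasl, Cd40, Cd27, Cd70 and Ngfr. Eda2r lies on the X chromosome and was left out. The rule gave 41 of 20665 autosomal protein-coding genes, with 16 ligands and 25 receptors. Within 50 kb of their gene bodies lay 168 of 37924 autosomal peaks of the post-caerulein list and 175 of 36846 autosomal peaks of the untreated list. The rule used symbols and positions and no measured value, but it was set with earlier results of these data known.

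The spheroids are three-dimensional cultures of pancreatic epithelial cells from wild-type C57BL/6J mice. One H3K27ac library came from mice that had been treated with caerulein, which stimulates acinar secretion and brings on pancreatitis, and the other from untreated mice. All cultures were grown in a medium with EGF, hydrocortisone and cholera toxin, and the labels give no interval between caerulein and culture. The study's title frames the comparison as one of epithelial memory after resolved inflammation. Each condition has 1 library, so no difference has a replicate check, and an input library of untreated spheroids was not used here. Sequencing depth is unknown.

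TNF superfamily ligands are mostly trimeric proteins on the cell surface or shed from it, and many are made by immune cells. Their receptors differ in what they recruit. Receptors with a death domain can recruit FADD or TRADD and lead to apoptosis, necroptosis or NF-kB activation, and the others bind TRAF adaptors and activate NF-kB and MAP kinases. Decoy receptors bind ligand without passing on a death signal. In the pancreas TNF is known as a cytokine released during acute pancreatitis.

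The labelled cell type was checked against marker genes. A promoter was called marked when a peak overlapped the 300 bases from 250 before to 50 after a RefSeq start site. For genes without a listed start site, a peak within 1 kb of either gene end was used instead. All 12 ductal genes were marked in both lists, among them Krt19 and Epcam, against 1 of 10 acinar genes (Bhlha15). None of the 8 lymphocyte, 8 mesenchymal, 6 endothelial and 6 endocrine genes was marked in either list. Of 8 myeloid genes, Cd14, Cd68 and Spi1 were marked in both lists and Ptprc after caerulein alone, while Adgre1 and Lyz2 had no peak within 50 kb in either list.

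Of the 41 members, 32 matched an entry of the RefSeq promoter table (GRCm38.p6), and 9 were judged by their gene ends. Promoters are shown in 5 cases, 5′ to 3′ on the strand of the gene. Ltb and Tnfrsf9 are the members marked in 1 list alone, Tnf and Lta are the neighbours of Ltb, and Tnfrsf12a lies under a long peak common to the lists. Capitals mark matches, on either strand, to the NF-kB decamer consensus, to the AP-1 motif TGANTCA, to the GC box GGGCGG or to TATAAA. The start site follows the first 250 bases.
Ltb, chr17:35194257-35194556, plus strand: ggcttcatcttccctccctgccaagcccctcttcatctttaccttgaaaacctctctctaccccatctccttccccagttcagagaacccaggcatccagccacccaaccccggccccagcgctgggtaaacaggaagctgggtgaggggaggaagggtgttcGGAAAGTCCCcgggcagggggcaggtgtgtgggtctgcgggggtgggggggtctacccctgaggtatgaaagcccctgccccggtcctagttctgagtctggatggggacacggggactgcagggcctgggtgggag
Tnfrsf9, the second listed start site, chr4:150927749-150928048, plus strand: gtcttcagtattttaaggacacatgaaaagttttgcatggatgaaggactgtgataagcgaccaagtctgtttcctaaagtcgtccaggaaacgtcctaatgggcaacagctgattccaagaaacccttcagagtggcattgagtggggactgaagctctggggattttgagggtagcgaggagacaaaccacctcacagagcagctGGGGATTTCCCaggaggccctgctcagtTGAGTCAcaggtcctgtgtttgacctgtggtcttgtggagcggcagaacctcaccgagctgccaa
Tnf, chr17:35201958-35202257, minus strand: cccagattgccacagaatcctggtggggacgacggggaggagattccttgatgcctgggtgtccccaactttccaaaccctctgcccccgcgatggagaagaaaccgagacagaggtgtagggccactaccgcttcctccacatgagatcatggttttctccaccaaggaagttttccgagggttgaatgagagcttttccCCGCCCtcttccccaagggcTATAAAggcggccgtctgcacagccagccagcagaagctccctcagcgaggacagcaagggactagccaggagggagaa
Lta, chr17:35205302-35205601, minus strand: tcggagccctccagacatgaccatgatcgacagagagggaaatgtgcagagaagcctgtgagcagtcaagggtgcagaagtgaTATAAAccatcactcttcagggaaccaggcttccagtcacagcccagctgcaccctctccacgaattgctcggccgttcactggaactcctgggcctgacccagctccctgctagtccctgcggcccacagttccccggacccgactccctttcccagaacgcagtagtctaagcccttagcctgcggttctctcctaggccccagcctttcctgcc
Tnfrsf12a, chr17:23677400-23677699, minus strand: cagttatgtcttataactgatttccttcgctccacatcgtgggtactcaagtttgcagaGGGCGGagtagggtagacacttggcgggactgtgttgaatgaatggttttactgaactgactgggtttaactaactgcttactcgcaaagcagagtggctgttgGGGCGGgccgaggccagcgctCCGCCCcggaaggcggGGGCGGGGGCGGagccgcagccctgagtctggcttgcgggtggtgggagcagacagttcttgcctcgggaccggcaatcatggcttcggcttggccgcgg

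The NF-kB decamer was found once in the Ltb promoter, from base 164 to 173. In the Tnfrsf9 promoter it matched at bases 208 and 209, which overlap, and an AP-1 match followed at base 236. Among the 36 listed promoters of the members, the only other match to the decamer lay in that of Tnfrsf8, which is unmarked in both lists. Across all 20078 autosomal promoters 4.94% held it, and of the 377 marked after caerulein alone 26 did (6.90%). The other motifs were matched in 7 of the 36 member promoters for AP-1 (19.4%, against 7.06% of all promoters). The GC box was matched in 17 (47.2%, against 47.0%) and TATAAA in 6 (16.7%, against 12.7%). These shares were not tested. The Tnf promoter had TATAAA at base 222, where a TATA box would lie, and 1 GC box. The Tnfrsf12a promoter had 5 GC boxes, and the Lta promoter had TATAAA at base 84 as its single match. Matches of different motifs did not overlap in these 5 sequences. A match describes letters and does not show that a factor binds.

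Most of the H3K27ac around the family was common to the conditions. Of the 41 members, 37 had a peak within 50 kb in at least 1 list (90.2%, against 80.5% of all autosomal genes). At these 37 genes the median share of covered bases found in both lists was 81.0%. That share was not computed for all genes, so it cannot be called particular to the family. Covered length, the number of bases under peaks in the window, averaged 23.2 kb after caerulein, against 22.7 kb in untreated spheroids per member with a peak. Over all genes with a peak the means were 19.1 and 18.8 kb. The median of the members went the other way, with 20.6 kb after caerulein, against 22.7 kb in untreated spheroids. Covered length was longer after caerulein at 20 members (54.1%, against 52.4% of all genes with a peak) and shorter at 17 (45.9%, against 47.6%). The median log2 ratio of covered length, post-caerulein over untreated with 1 kb added to each, was 0.02 over the members and 0.01 over 16645 genes. A ratio of 2-fold or more upwards was reached by 0 members (3.11% of all genes) and downwards by 1 (2.70%, against 2.89% of all genes). The shares of longer, shorter and 2-fold genes lie near the background.

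**Figure D1:**
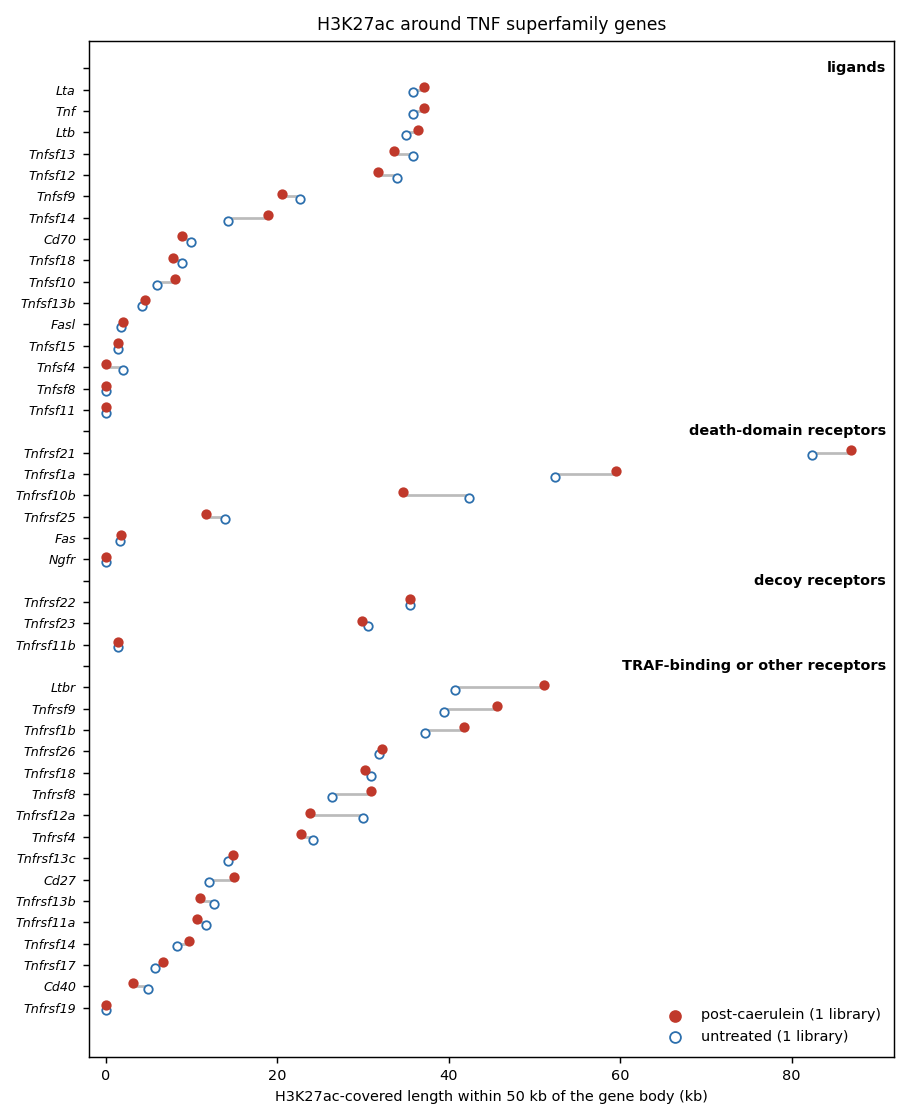
H3K27ac-covered length within 50 kb of each TNF superfamily gene body (x axis, kb), with filled points for the post-caerulein library and open points for the untreated library, 1 library each and no error bars. The points of a gene lie close together in most rows; Ltbr, with 51.2 kb after caerulein, against 40.7 kb in untreated spheroids, is the widest apart, and Tnfsf8, Tnfsf11, Ngfr and Tnfrsf19 are at 0 in both.

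Several members share a neighbourhood, since the 41 windows merge into 28 loci, 9 of which hold more than 1 member. Summed over the loci, peaks covered 598.3 kb after caerulein, against 585.7 kb in untreated spheroids. Covered length was longer after caerulein at 14 loci, shorter at 11 and absent from both lists at 3. The windows also hold other genes. A member was the nearest protein-coding gene for 71 of the 168 post-caerulein peaks and 78 of the 175 untreated peaks.

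Ligand genes split into marked and unmarked. The promoter or gene end was marked in both lists at 7 of 16 ligands, after caerulein alone at 1 and in neither list at 8. Those marked in both were Tnf, Tnfsf9 (the ligand of 4-1BB), Tnfsf10 (TRAIL, a ligand that triggers apoptosis), Tnfsf12 (TWEAK), Tnfsf13 (APRIL), Tnfsf15 (TL1A) and Tnfsf18 (the ligand of GITR). Over all 41 members, 21 were marked in both lists (51.2%, against 53.5% of all genes), 2 after caerulein alone (4.88%, against 1.81%), 0 in untreated spheroids alone (background 1.07%) and 18 in neither (43.9%, against 43.6%). For the 32 members with a listed promoter alone, 15 were marked in both (46.9%, against 53.8%), 2 after caerulein alone (6.25%, against 1.71%), 0 in untreated spheroids alone (background 0.924%) and 15 in neither.

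Tnf, Ltb and Lta lie side by side on chromosome 17. Tnf (35199367 to 35202007), which encodes the founding cytokine of the family, lay whole under a peak in each list. That peak was 5315 bp wide after caerulein (35197622 to 35202936) and 5295 bp in untreated spheroids (35197772 to 35203066). Ltb (35194507 to 35196305) encodes lymphotoxin beta, which anchors lymphotoxin alpha to the cell surface. Its peak after caerulein was 3099 bp wide and reached 389 bp upstream of the start site. In untreated spheroids the Ltb peak was 1850 bp wide and began 517 bp downstream of the 300 promoter bases. The Ltb peaks overlap each other, so the difference is one of extent. The promoter of Lta, the lymphotoxin alpha gene, was free of peaks, with the nearest peak 2365 bp away after caerulein and 2235 bp away in untreated spheroids. Covered length in the Tnf window was 37.1 kb after caerulein, against 35.8 kb in untreated spheroids.

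Beside these genes of immune cells, covered length within 50 kb of immune marker genes was as follows. A window can hold peaks of other genes, so the lengths do not measure immune cells. No lymphocyte gene was marked in either list, and neither Csf1r nor Itgam was. Summed covered length around the 8 myeloid genes was 115.3 kb after caerulein, against 117.3 kb in untreated spheroids, and around the 8 lymphocyte genes it was 79.5 kb after caerulein, against 87.0 kb in untreated spheroids. The sums add the window of each gene. Cd3d and Cd3e are neighbours on chromosome 9 and share most of their windows, so bases there can count more than once. Cd3d had 4.02 kb after caerulein, against 6.74 kb in untreated spheroids, and Cd3e 19.7 kb, against 22.8 kb. Of the 6 myeloid genes with a peak, 4 were longer after caerulein and 2 shorter. At Csf1r covered length was 12.6 kb after caerulein, against 7.57 kb in untreated spheroids. At Cd14 it was 52.5 kb after caerulein, against 50.9 kb in untreated spheroids, and at Itgam 1.55 kb after caerulein, against 1.34 kb in untreated spheroids. At Cd68 it was 35.5 kb after caerulein, against 36.8 kb in untreated spheroids. At Spi1 it was 6.25 kb after caerulein, against 15.2 kb in untreated spheroids, and at Ptprc 6.89 kb after caerulein, against 5.46 kb in untreated spheroids. Fewer cells of a type and less acetylation per cell cannot be told apart in bulk chromatin, and the part of immune cells in these results was not tested.

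Tnfsf10, on chromosome 3, was marked by a peak of 1728 bp after caerulein and 1601 bp in untreated spheroids. Its window held 5 peaks covering 8.07 kb after caerulein and 4 peaks covering 6.02 kb in untreated spheroids (log2 ratio 0.37). The added post-caerulein peak, 27.5 kb from the gene, had a score of 50.37, and the lowest score of that list is 50.01. Tnfsf14, which encodes LIGHT, had the largest ratio upwards, with 18.9 kb after caerulein, against 14.3 kb in untreated spheroids (log2 ratio 0.38), but no peak touched its gene body in either list. The post-caerulein-only peak of its window, 2113 bp wide and 12817 bp from the gene body of Tnfsf14, lay over the complement gene C3.

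Tnfsf12 and Tnfsf13 lie end to end on chromosome 11 within Tnfsfm13, which joins them, so peaks there cannot be assigned to one of them. A peak over the start of Tnfsf13 was 8855 bp wide after caerulein and 7861 bp in untreated spheroids. A further peak of 7609 bp (69689157 to 69696765) covered the rest of Tnfsf12 after caerulein, and 9.83 kb of its 9.86 kb were covered, against 7.66 kb in untreated spheroids, where 3 peaks of 2747, 1838 and 1690 bp lay in its place. Within 50 kb the order was the opposite, with 31.8 kb after caerulein, against 34.0 kb in untreated spheroids, where 2 untreated-only peaks lay 7751 bp and 18944 bp from Tnfsf12.

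The 8 ligands without a mark were Lta, Fasl, Cd70, Tnfsf4, Tnfsf8, Tnfsf11, Tnfsf13b and Tnfsf14. Within 50 kb, neither list had a peak near Tnfsf8 (CD30 ligand) or near Tnfsf11 (RANKL, the ligand that drives osteoclast formation), whose promoter was 217405 bp from the nearest peak after caerulein and 217152 bp from it in untreated spheroids. Tnfsf4 (OX40 ligand) had 0 peaks after caerulein and 1 in untreated spheroids, 2002 bp wide and 32.9 kb from the gene. With a score of 155.15 that peak was in the lowest 25% of its list. It makes Tnfsf4 the 1 member past the 2-fold limit (log2 ratio -1.59, with 1 kb added to each length), a call that a window of 10 or 100 kb, a pseudocount of 5 kb or the omission of peaks scored below the median ended. Fasl (the Fas ligand) had 1 peak in each list, 20717 bp from its promoter after caerulein and 20778 bp from it in untreated spheroids. Tnfsf13b (BAFF) had 1 shared peak, 26408 bp from its nearer start site after caerulein and 26663 bp from it in untreated spheroids, and Cd70 had no mark at its ends.

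Death-domain receptors were marked at 4 of 6 genes in both lists (53.5% of all genes). They were Tnfrsf1a (TNFR1, the main receptor of soluble TNF), Fas, Tnfrsf10b (the death receptor for TRAIL in mice) and Tnfrsf21 (DR6). Tnfrsf25 (DR3, the receptor of TL1A) and Ngfr (the p75 neurotrophin receptor) were unmarked. The Tnfrsf25 window held 6 peaks covering 11.6 kb after caerulein, against 8 peaks covering 13.9 kb in untreated spheroids (log2 ratio -0.24). The 2 untreated-only peaks there lay near Hes2, 42022 and 44739 bp from Tnfrsf25. Ngfr had no peak within 50 kb, and its promoter lay 77755 bp from the nearest peak after caerulein and 77785 bp in untreated spheroids.

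Tnfrsf1a (chromosome 6, 125349723 to 125362483) was covered along its whole length after caerulein and in its first part in untreated spheroids. Peaks of 10107 bp (125348117 to 125358223) and 7210 bp (125358258 to 125365467) adjoined each other after caerulein. In untreated spheroids the corresponding peaks were 9455 bp (125348438 to 125357892) and 2797 bp (125362586 to 125365382), with a gap between them. Of the 12.8 kb of the gene body, 12.7 kb was covered after caerulein, against 8.17 kb in untreated spheroids (log2 ratio 0.58). Within 50 kb the values were 59.5 kb after caerulein, against 52.5 kb in untreated spheroids (log2 ratio 0.18).

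The neighbouring Ltbr, which encodes the lymphotoxin beta receptor, had the largest difference in length of the family. The window held 51.2 kb after caerulein, against 40.7 kb in untreated spheroids (log2 ratio 0.32). Its promoter lay under a single peak of 15594 bp after caerulein (125310763 to 125326356). In untreated spheroids the same stretch was split into peaks of 4449 bp and 9641 bp. The peak reached 12471 bp upstream of the start site after caerulein and 1681 bp upstream in untreated spheroids, toward Scnn1a, a gene of the epithelial sodium channel. Counted by nearest gene body, which gives the whole 15594 bp peak to Ltbr after caerulein and the 9641 bp peak to Scnn1a in untreated spheroids, Ltbr passed the 2-fold limit. Within the gene body itself 3.12 kb was covered after caerulein, against 2.77 kb in untreated spheroids. Across the locus of Cd27, Ltbr and Tnfrsf1a, 82.2 kb was covered after caerulein, against 69.4 kb in untreated spheroids, with 18 peaks in each list. Of these, 2 were post-caerulein-only and 1 was untreated-only. The post-caerulein-only peak at Tuba3a (125283647 to 125285348) had a score of 296.14, the highest of the 13 such peaks around the family.

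**Figure D2:**
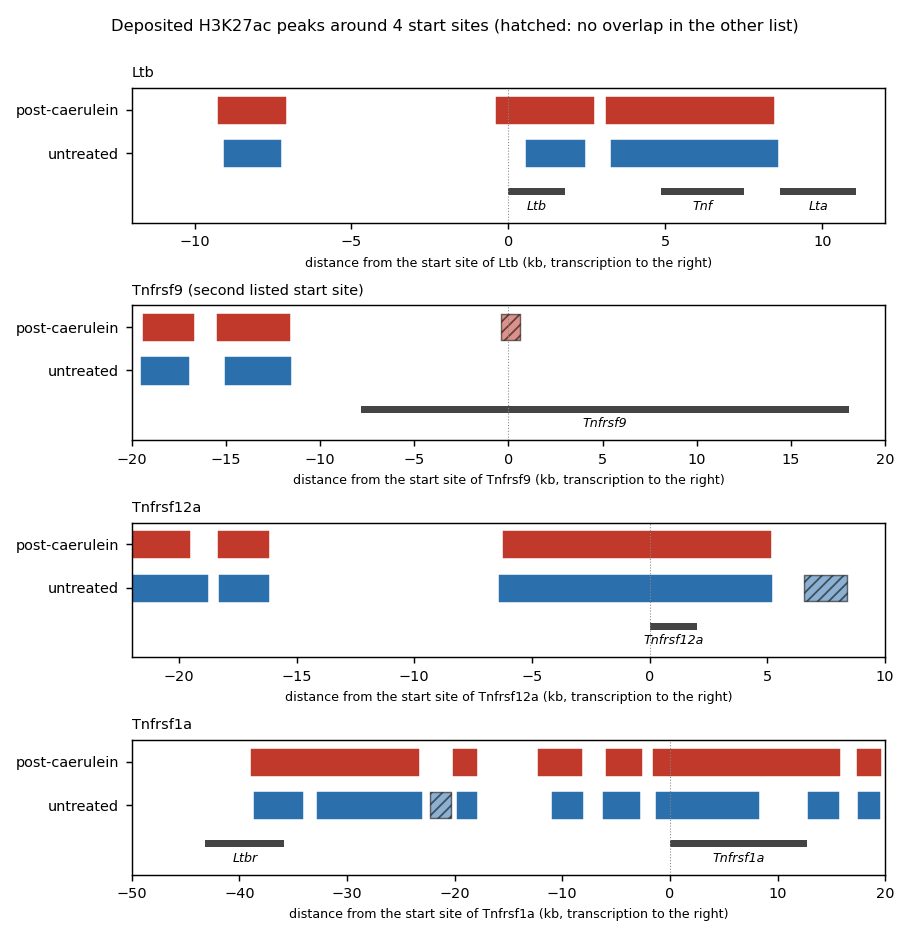
Peaks of the post-caerulein list (upper row) and the untreated list (lower row) against distance from the start sites of Ltb, Tnfrsf9 (second listed), Tnfrsf12a and Tnfrsf1a (x axis, kb), with hatched boxes for peaks without overlap in the other list and grey bars for gene bodies. After caerulein alone, the Ltb peak crosses the start site and a peak of 971 bp covers the second start site of Tnfrsf9. The Tnfrsf12a peak is alike in extent in both lists, and the Ltbr peak of 15594 bp is split in untreated spheroids.

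Tnfrsf10b (chromosome 14, 69767472 to 69784411) went the other way. Within the gene body 3.73 kb was covered after caerulein, against 11.5 kb in untreated spheroids (log2 ratio -1.40). It was the 1 member of 25 with a peak in the body to pass the 2-fold limit there, and 3.31% of all genes with a peak in the body did so in the same direction (4.06% in the other). The peak over its lower end was 4415 bp wide after caerulein and 3318 bp in untreated spheroids. Farther inside the gene the post-caerulein list had 1 peak of 1805 bp. The untreated list had peaks of 2060, 6035 and 936 bp there and another of 1785 bp over the upper end, of which only the 6035 bp peak overlapped a post-caerulein peak. The 3 untreated-only peaks had scores of 64.48 to 118.42, in the lowest 25% of their list. Within 50 kb the covered lengths were 34.6 kb after caerulein, against 42.4 kb in untreated spheroids (log2 ratio -0.28), and 65.2% of the covered bases were common to the lists. When peaks scored below their list's median were left out, the log2 ratio within 50 kb was 0.09.

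Tnfrsf21 (chromosome 17, 43016555 to 43089188) had the longest covered length of the family. It was 86.9 kb in 17 peaks after caerulein, against 82.4 kb in 20 peaks in untreated spheroids (log2 ratio 0.08). The peak at its start was 10907 bp wide after caerulein and 10321 bp in untreated spheroids. A second long peak inside the gene was 15675 bp wide after caerulein (43064514 to 43080188) and 12195 bp in untreated spheroids (43067240 to 43079434). Within the gene body the order was turned, with 33.9 kb after caerulein, against 38.1 kb in untreated spheroids. The untreated-only peaks there numbered 3 and the post-caerulein-only peaks 1. Fas (chromosome 19) had 1 peak in each list, over its promoter, 1767 bp wide after caerulein and 1671 bp in untreated spheroids.

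The decoy receptors were marked in both lists at 3 of 3 genes (53.5% of all genes). Tnfrsf22 and Tnfrsf11b were judged by their gene ends. When peaks scored below their list's median were left out, Tnfrsf23 was the only decoy still marked in both lists. Tnfrsf22 and Tnfrsf23 encode mouse decoy receptors for TRAIL and lie beside Tnfrsf26 on chromosome 7. The 3 genes share a locus with 46.4 kb covered after caerulein, against 46.3 kb in untreated spheroids. The Tnfrsf22 window alone held 35.5 kb after caerulein, against 35.4 kb in untreated spheroids (log2 ratio 0.00). A peak of 12684 bp (143619882 to 143632565) at Tnfrsf26 after caerulein was split into peaks of 7102, 3118 and 1826 bp in untreated spheroids. The number of peaks therefore differed here, at 12 after caerulein and 14 in untreated spheroids, while the covered length was nearly equal. Tnfrsf11b (osteoprotegerin, a soluble decoy for RANKL) had 1 peak in each list, over its upper end, of 1434 bp after caerulein and 1445 bp in untreated spheroids.

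**Figure D3:**
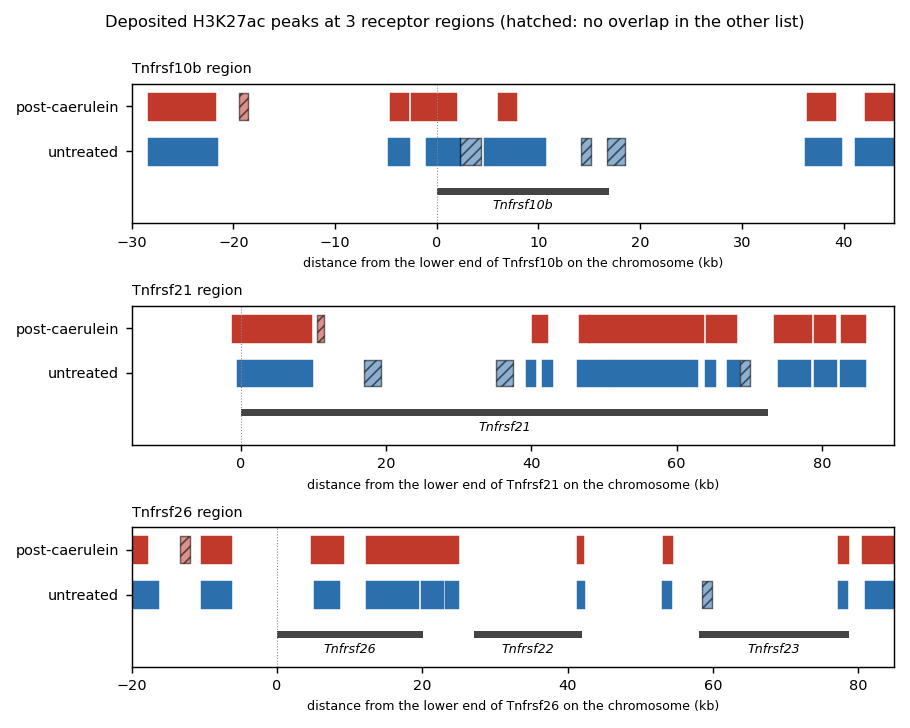
Peaks of the post-caerulein list (upper row) and the untreated list (lower row) against distance from the lower chromosomal end of Tnfrsf10b, Tnfrsf21 and Tnfrsf26 (x axis, kb), with hatched boxes for peaks without overlap in the other list and grey bars for gene bodies. Inside Tnfrsf10b the untreated row is fuller (11.5 kb, against 3.73 kb after caerulein), and at Tnfrsf26 1 post-caerulein peak stands opposite 3 untreated peaks.

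The other receptors, most of which bind TRAF adaptors, were marked in both lists at 7 of 16 genes (53.5% of all genes). After caerulein alone 1 was marked (1.81% of all genes). Marked in both were Ltbr, Tnfrsf1b (TNFR2), Tnfrsf11a (RANK), Tnfrsf12a (Fn14, the receptor of TWEAK), Tnfrsf14 (HVEM), Tnfrsf18 (GITR) and Tnfrsf26. The unmarked ones included receptors of B cells (Tnfrsf13b, Tnfrsf13c and Tnfrsf17) and Cd27, Cd40, Tnfrsf4, Tnfrsf8 and Tnfrsf19. Tnfrsf19 (TROY) was the most isolated member, 252086 bp from the nearest peak after caerulein and 252157 bp in untreated spheroids, measured from its nearer start site. Cd40 had 3.23 kb covered in its window after caerulein and 4.89 kb in untreated spheroids.

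Tnfrsf9 (4-1BB, a co-stimulatory receptor of T cells; chromosome 4, 150920155 to 150946104) was marked at the second start site listed by RefSeq, after caerulein alone. A post-caerulein-only peak of 971 bp (150927630 to 150928600) lay over it, and the untreated list had no peak within the gene body. The nearest untreated peak lay 11341 bp from that promoter. The score of the peak was 63.62, at percentile 6.01 of its list. The first start site was unmarked in both lists. The window held 45.6 kb after caerulein, against 39.5 kb in untreated spheroids (log2 ratio 0.20), most of it at Park7, Errfi1 and Per3.

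Tnfrsf12a (chromosome 17, 23675445 to 23677449) lay whole under a peak of 11345 bp after caerulein and 11535 bp in untreated spheroids. This peak also covered parts of Thoc6. Around it 23.8 kb was covered after caerulein, against 30.0 kb in untreated spheroids (log2 ratio -0.32), and 2 untreated-only peaks lay 16065 and 4565 bp from the gene, with scores of 159.73 and 80.72. The long peak was therefore alike in extent, and the difference in covered length lay in the flanks. Both long peaks had a score of 3100, shared by many peaks, and signal height was not measured. Tnfrsf1b (chromosome 4) had 41.7 kb after caerulein, against 37.2 kb in untreated spheroids (log2 ratio 0.16), with a promoter peak of 3356 bp after caerulein and 3009 bp in untreated spheroids. Its neighbour Tnfrsf8 (CD30) had 30.9 kb after caerulein, against 26.4 kb in untreated spheroids.

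List-only peaks made up a smaller share of peaks around the family than around all genes in these 2 lists, a difference that was not tested. The intervals below treat peaks as independent, although the peaks cluster in 28 loci of 1 library per condition. For untreated peaks the interval held the share around all genes. Of the post-caerulein peaks 13 of 168 had no overlap in the other list (7.74%, exact 95% interval 4.18 to 12.9, for counting error only), against 16.4% of all peaks within 50 kb of a protein-coding gene body. Of the untreated peaks 17 of 175 had none (9.71%, 5.76 to 15.1), against 13.6%. At least 1 post-caerulein-only peak lay in the window of 13 of 37 members (35.1%, against 41.1% of all genes with a peak), and at least 1 untreated-only peak in that of 16 (43.2%, against 38.8%). Neither width nor score was matched in these shares. The median score of post-caerulein peaks was 667.4 in the windows, against 528.0 over all autosomes. For untreated peaks it was 705.6 in the windows, against 687.0 over all autosomes. Of the 13 post-caerulein-only peaks 12 were in the lowest 25% of scores of their list, as were all 17 untreated-only peaks. The share in the lowest 25% was not computed for list-only peaks over all autosomes. Scores below the list's median were general among them. Over all autosomes only 180 of 6681 list-only peaks after caerulein, and 295 of 5229 in untreated spheroids, reached the median of their list. Around the family 0 of 13 and 0 of 17 did. Median widths were 1111 bp for the post-caerulein-only and 1785 bp for the untreated-only peaks. For all peaks of the windows they were 2723 bp after caerulein and 2536 bp in untreated spheroids. A member was the nearest gene for 4 of the 13 post-caerulein-only and 9 of the 17 untreated-only peaks.

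Ligands and receptors that bind each other were set side by side in 26 textbook pairs. After caerulein both partners were marked in 10 pairs, the receptor alone in 7, the ligand alone in 3 and neither in 6. In untreated spheroids both partners were marked in 8 pairs, the receptor alone in 8, the ligand alone in 4 and neither in 6. The 2 pairs that differed were Ltb with Ltbr and Tnfsf9 with Tnfrsf9, the pairs that hold the members marked after caerulein alone. Both partners were marked in both lists for Tnf with either TNF receptor, Tnfsf10 with Tnfrsf10b and with each decoy, Tnfsf12 with Tnfrsf12a, and Tnfsf18 with Tnfrsf18. With peaks scored below their list's median left out, Tnfsf10, Tnfsf18, Tnfrsf18, Tnfrsf22 and Tnfrsf11b were no longer marked in both lists. The receptor alone was marked in both lists for Fas and Fasl and for RANK and RANKL. Genes recur in several pairs, so the pairs are not independent.

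Base composition was not used in the choice of genes. The 15 member promoters marked in both lists had a median of 11 CpG sites in 300 bases, against 22 over all autosomal promoters marked in both lists. The 19 unmarked member promoters had a median of 8.0, against 4.0 over all unmarked promoters. CpG counts among the marked members ran from 2 at Tnfrsf14 to 43 at Tnfrsf11a. TATAAA was found in 3 of the 15 marked member promoters (20.0%), against 6.28% of all promoters marked in both lists, and a GC box in 9 (60.0%), against 67.1%. These are descriptions of few promoters without a test.

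Inside the cell, the pathway's genes were marked almost throughout. Of 20 receptor-proximal adaptors and ubiquitin enzymes 19 were marked in both lists and Traf1 in neither, where 53.5% of all genes were marked in both. All 18 NF-kB and kinase genes were marked in both. Of 9 death execution genes 8 were, and Casp8, the initiator caspase of death receptors, was marked after caerulein alone, as were 1.81% of all genes. None of these 47 genes passed the 2-fold limit. Covered length was longer after caerulein at 10 of 20 adaptors and ubiquitin enzymes (median log2 ratio 0.01), at 7 of 18 NF-kB and kinase genes (-0.04) and at 1 of 9 death execution genes (-0.05). Of all genes 52.4% were longer after caerulein, and their median log2 ratio was 0.01.

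The largest ratios upwards were at Birc2 and Birc3, which encode the inhibitor of apoptosis proteins bound to TRAF2. Birc2 had 25.3 kb after caerulein, against 12.4 kb in untreated spheroids (log2 ratio 0.98). Birc3 had 28.4 kb after caerulein, against 15.0 kb in untreated spheroids (0.88). The genes lie 10336 bp apart on chromosome 9 and share most of their windows, so they are 1 observation. Traf3, an adaptor that restrains non-canonical NF-kB signalling, had 16.7 kb after caerulein, against 9.59 kb in untreated spheroids (0.74), with 2 post-caerulein-only peaks and 0 untreated-only peaks. Otulin had 11.2 kb after caerulein, against 8.54 kb in untreated spheroids (0.36), and Ripk1 30.7 kb after caerulein, against 26.4 kb in untreated spheroids (0.21). Nfkbie, an inhibitor of NF-kB, had 26.0 kb after caerulein, against 19.8 kb in untreated spheroids (0.38), and Map3k7 (TAK1) 6.89 kb after caerulein, against 5.17 kb in untreated spheroids (0.35). The log2 ratio was 0.27 at Map3k8, 0.24 at Ikbkb and 0.05 at Nfkbia.

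Downwards, Cyld, a deubiquitinase that limits NF-kB signalling, had 13.3 kb after caerulein, against 18.2 kb in untreated spheroids (log2 ratio -0.42). Rel, an NF-kB subunit gene, had 12.8 kb after caerulein, against 17.0 kb in untreated spheroids (-0.39). Traf1 had 5.57 kb after caerulein, against 7.47 kb in untreated spheroids (-0.37). The log2 ratio was -0.25 at Tab2, -0.23 at Nfkb2, -0.21 at Tab1 and -0.16 at Mapk8. Among the adaptors and ubiquitin enzymes it was -0.22 at Rnf31, -0.21 at Traf4 and -0.18 at Fadd, the adaptor of death receptors. Among the death execution genes it was -0.09 at Mlkl and 0.05 at Casp8.

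**Figure D4:**
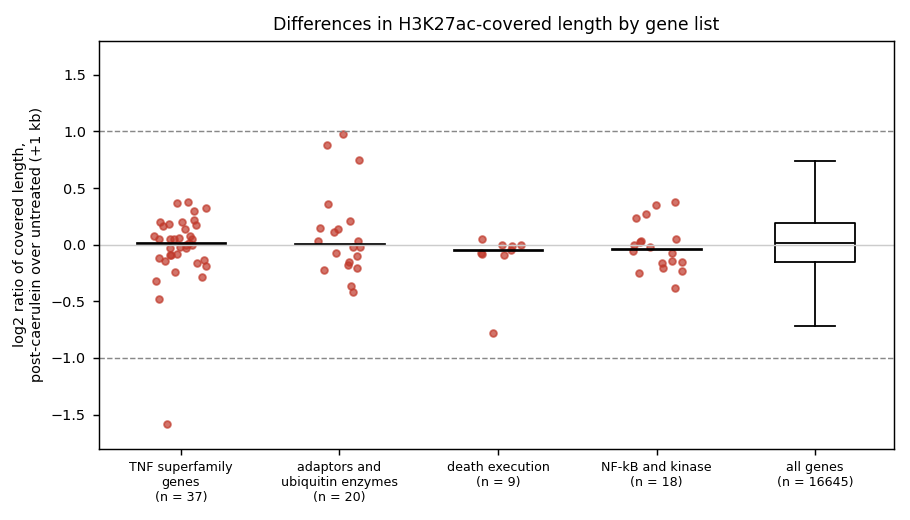
Log2 ratio of H3K27ac-covered length within 50 kb, post-caerulein over untreated with 1 kb added (y axis), for TNF superfamily genes and 3 lists of the pathway, 1 point per gene with a peak in the window, bars at the medians, and a box for all 16645 genes (quartiles, whiskers from the 5th to the 95th percentile). Dashed lines mark the 2-fold limits; Tnfsf4 at -1.59 is the 1 point beyond them, and Birc2 at 0.98 is the nearest below the upper line.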

How the data were processed

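H3K27ac chromatin immunoprecipitation and sequencing of 1 post-caerulein and 1 untreated spheroid library was analysed as deposited. Per the submitters' processing notes, the authors used Trimmomatic 0.38, Bowtie2 2.2.6, SAMtools and MACS 1.4 with GRCm38 (mm10). Each deposited list belongs to 1 library and gives position, name and score per peak. The deposited score is not defined by a header, has many peaks at 3100, and was used only to rank or filter peaks within a list. Caller options and the control library are not given in the sources used here.

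Peaks on the 19 autosomes were compared by an overlap of at least 1 bp (checked with bedtools 2.31.1) with numpy 2.4.6 and pandas 2.3.3. Gene bodies, start sites and promoter sequences came from RefSeq tables of GRCm38.p6. Covered length was measured within 50 kb of the gene body, with a pseudocount of 1 kb and a limit of 2-fold. As a check of the code, 1000 genes were simulated with 1 noiseless peak each, and the 200 widened 4-fold were all recovered (100%). The widening fixed that outcome, so it does not measure sensitivity in these lists. With 1 library per condition no test was run. Members, lists and the rule for named genes (marked in 1 list alone, 2 or more list-only peaks of 1 list and none of the other, past the limit with at least 5 kb, or among the 12 longest; in the pathway lists up to 5 genes per direction) were chosen with earlier results of these data known. Xiap lies on the X chromosome and dropped out of its list, and some genes of the pathway lists are not reported here. The alternatives varied window, pseudocount, overlap, merging and score filter.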

Additional observations from a re-analysis of the deposited data

How the results depend on the processing

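The gene body alone was added after seeing the data, and the other alternatives were planned. Members 2-fold or more longer after caerulein numbered 0, and 1 by nearest gene body (Ltbr) and 1 with peaks at or above their list's median score (Tnfsf10). Members 2-fold or more shorter numbered 1 (Tnfsf4), and 0 with windows of 10 or 100 kb, with a pseudocount of 5 kb and with the score limit. With the gene body alone it was 1, Tnfrsf10b in place of Tnfsf4. Post-caerulein-only and untreated-only peaks numbered 13 and 17. They became 3 and 9 within 10 kb, 24 and 30 within 100 kb, 4 and 9 by nearest gene body, 3 and 7 in the gene body, and 0 and 0 at or above the median score. Post-caerulein-only peaks became 7 with equal numbers of peaks. Untreated-only peaks became 11 after merging within 1 kb, and 11 when a gap of up to 1 kb passed as overlap. Members marked in both lists were 21, and 12 with the score limit. That limit dropped Fas, Tnfrsf11a, Tnfrsf11b, Tnfrsf14, Tnfrsf18, Tnfrsf22, Tnfsf10, Tnfsf15 and Tnfsf18. Members marked after caerulein alone were 2, with 1 left (Tnfrsf9) when a peak within 2.5 kb counted and 0 with the score limit. With the score limit, Tnfsf10 kept a post-caerulein peak scored 576.64, above its list's median of 528.0. The overlapping untreated peak, scored 562.2, was left out because its list's median was 687.0. A smaller window or a score limit on list-only peaks lowers their count by construction. The score limit likewise lowers the count of members marked in both lists. For the other changes the cause was not tested. Of 14 named members, 4 (Ltbr, Tnfrsf1a, Tnfrsf1b and Tnfrsf9) kept the sign of their ratio under all 9 alternatives. No paired analysis was possible because there is a single library per condition, so none could be left out. Depth is unknown and bears on every list-only count.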
